A study of Mus musculus with 4 samples.

Results

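Genes that let the heart burn fatty acids were examined in mouse hearts dissected at embryonic day 9.5, from embryos with and without a conditional deletion of Hdac3, a class I histone deacetylase. The set was a given list of 35 genes for the uptake, release, transport and oxidation of fatty acids and for the control of this fuel choice, out of 30342 genes on the array. For each gene the probe of highest mean processed signal over both dyes and all arrays was taken from all non-control probes that carried its name. All 35 genes had a probe. Of these, 34 passed the filter for brightness, which asked that either the mutant or the control pool be well above background on each of the 4 arrays, as did 19698 genes in all. The exception was Lipe, the hormone-sensitive lipase, which was well above background on 2 of 4 arrays in the mutant and 3 of 4 in the control channel. Mutant pools came from Nkx2.5Cre; Hdac3f/f embryos, in which the Cre recombinase is driven by the Nkx2.5 gene of cardiac progenitors, and control pools from Hdac3f/f embryos. Both were on a mixed CD1/B6/129 background and were littermates per the labels. Each of the 4 two-colour arrays set a pool of 3 mutant hearts against a pool of 3 control hearts, which gave 4 pairs. Because the labels give the controls no Cre, loss of Hdac3 and presence of Cre cannot be told apart.

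Fatty acids enter the cell through carriers such as Cd36, are bound by Fabp3, are activated to acyl-CoA by the Acsl enzymes and are carried into mitochondria by the carnitine shuttle, in which the Cpt1 enzymes set the pace. Inside, a cycle of dehydrogenases, hydratases and thiolases shortens them, and the electron transfer flavoprotein passes the electrons on to the respiratory chain. The embryonic heart relies mainly on glucose and lactate and turns to fatty acids after birth, under nuclear receptors of the PPAR and ERR families and their coactivators of the PGC-1 family. Hdac3 is the catalytic partner of nuclear receptor corepressors such as Ncor1, through which unliganded nuclear receptors can hold such genes down.

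The arrays lay on 1 slide, and between 66.6% and 71.2% of probes in a given channel exceeded background clearly. Precision is limited by there being only 4 pairs. The ratios are the log2 values of the authors' deposited table, in columns named as mutant against wild type. The labels place mutant RNA in Cy5 on every array, but those columns track the Cy5/Cy3 ratio on arrays 1 and 2 (r across bright probes 0.932 and 0.940) and the other way on arrays 3 and 4 (-0.992 and -0.951). The direction used here, that of the column names, is therefore likely and not settled, and the mean with every array read as Cy5 over Cy3, the reading of the labels, is given beside the main results. The Hdac3 transcript had log2 ratios of -0.22, -0.50, -0.52 and -1.15 on arrays 1 to 4, a mean of -0.60 ± 0.39 (SD, n = 4), and did not pass the test over all genes (limma, adjusted p = 0.584). Read as labelled, its mean was 0.24. Whether its probe lies in the floxed part of the gene was not known, so it is a weak check of the labels. All 13 heart muscle markers passed the brightness filter, while the free-text description of replicates 2, 3 and 4 speaks of stem cells. Of 6 pluripotency genes, Pou5f1 and Dppa3 were not well above background in any channel, and Nanog, Zfp42, Utf1 and Esrrb were so on all 4 arrays in both pools.

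No lipid fuel gene passed the test on its own, and the set did not keep to one side of the other genes. Its median log2 ratios were -0.11, -0.17, 0.032 and 0.099 on arrays 1 to 4, beside 0.000, 0.003, 0.011 and 0.003 for all genes, so that it lay lower on arrays 1 and 2 and higher on arrays 3 and 4, with an SD of 0.126 over the arrays. Of the 34 genes tested, 23 had a mean log2 ratio below 0 and 11 above, where 46.5% and 53.4% of all genes tested did, with a median of the means of -0.079 beside 0.011 for all 19698 genes. In limma with Benjamini-Hochberg adjustment, 0 of the 34 passed an adjusted p of 0.05, as did 0 of all genes tested, 0% of them, and the lowest adjusted p among the 34 was 0.584. At an unadjusted p under 0.05, 3 of the 34 were lower, namely Lpl, Ucp3 and Etfa, where 4.59% of all genes tested met that mark, and 2 were higher, namely Cd36 and Cpt1b, where 3.89% of all genes did. These shares stand on few genes and lie near those of all genes. In RNA pooled from whole hearts, fewer cells of a type and less RNA per cell cannot be told apart.

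The count of genes with a ratio below 0 on every array was further from the background. It was 9 of 34 or 26.5%, against 9.73% of all genes tested, and the 9 were Acsl3, Lpl, Cpt1a, Cpt2, Acadl, Etfa, Etfdh, Ucp2 and Ucp3. A single gene, Cpt1b, was above 0 on all 4 arrays, or 2.94%, against 10.0% of all genes. No test of the list was made, and its genes can move together, so these shares describe the set and do not separate it from other sets. The plot of log2 ratios by gene and array shows that 29 of the 34 means lay within 0.2 of 0 and that the arrays often disagreed in sign. The SD over the arrays was above 0.30 for 11 of the 34 genes, or 32.4%, against 22.0% of all genes tested.

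**Figure D1:**
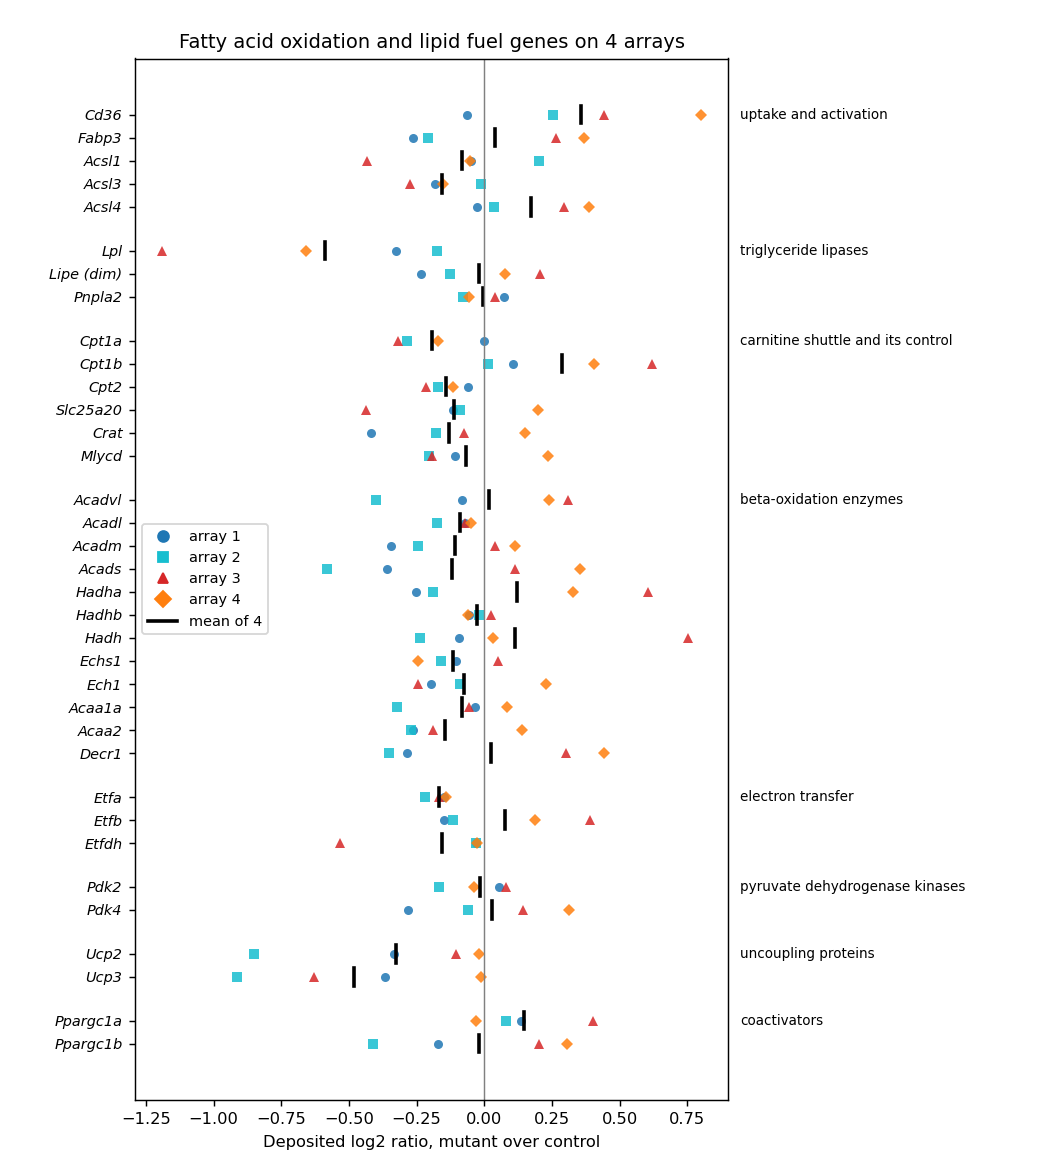
Deposited log2 ratios of mutant over control (horizontal axis) for each of the 35 genes (rows), grouped by role, with one symbol per array and a black bar at the mean of 4 arrays; Lipe did not pass the brightness filter. Lpl, Ucp2 and Ucp3 lie below 0 on all 4 arrays and Cpt1b above, whereas most enzymes of beta-oxidation lie below 0 on arrays 1 and 2 and on both sides of 0 on arrays 3 and 4.

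Among the genes that free fatty acids from triglyceride, Lpl, the lipoprotein lipase that releases them from circulating particles, had the lowest mean of the 34. Its log2 ratios were -0.33, -0.17, -1.19 and -0.66 on arrays 1 to 4, below 0 on every array and lowest on arrays 3 and 4. This averaged -0.59 ± 0.45 (SD, n = 4) or 0.666 on the linear scale, with a limma standard error of 0.169 and an adjusted p of 0.584, so it did not pass. In processed signal, which is background-subtracted intensity, with dyes assigned in the deposited direction, the mutant pools read 1963, 2451, 1898 and 2794 and the control pools of the same arrays 2457, 2728, 4350 and 4513. Control was above mutant on each array, although the control pools of arrays 1 and 2 lay below the mutant pool of array 4. The other Lpl probe read -0.37, -0.16, -0.63 and -0.67, also below 0 throughout, with a mean of -0.46. The probe used lies at chr8:71430267-71430326 in mm9, and no annotation of that build was used to place it in an exon. Without replicate 3 the mean was -0.39, and read as labelled it was 0.34, above 0. With limma's array weights, which count less the arrays that vary more and were 3.24, 2.18, 0.284 and 0.498 for arrays 1 to 4, it was -0.34. Pnpla2, the adipose triglyceride lipase, had ratios from -0.078 to 0.074 and a mean of -0.006. Lipe, too dim to test, read -0.23, -0.13, 0.21 and 0.077.

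The genes of uptake and activation did not share a direction. Cd36, the fatty acid translocase found on muscle and capillary endothelium, had the highest mean of the 34, at 0.36 ± 0.36 (SD, n = 4; limma adjusted p = 0.584). Its ratios were -0.063, 0.25, 0.44 and 0.80, so array 1 was near 0 and array 4 stood above the others. Without replicate 4 its mean was 0.21, with array weights it was 0.14, and read as labelled it was -0.26. Its processed signals were 220.5, 278.1, 407.4 and 615.4 in the mutant and 231.9, 230.2, 290.0 and 347.6 in the control pools, and the groups overlapped. Of 10 endocardial and endothelial markers, 6 were higher on all 4 arrays and 2 lower, against 10.0% and 9.73% of all genes tested. The median of these markers was 0.22 (0.19, 0.18, 0.42 and 0.15 by array). Their summed signal ran from 8470 to 24700 in the mutant and from 7300 to 12500 in the control pools, and none was at background throughout. The high end came from Kdr on array 3, at 15530 in the mutant pool against 2695 to 2843 in the other mutant pools. The part of these markers in the Cd36 value was not tested.

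The other genes of this group lay closer to 0. Acsl4, an acyl-CoA synthetase that prefers arachidonate, had ratios of -0.028, 0.035, 0.30 and 0.39 and a mean of 0.17 ± 0.20, which was 0.10 without replicate 4 and 0.042 with array weights. Acsl3, a synthetase of lipid droplets and the endoplasmic reticulum, was below 0 on all 4 arrays, between -0.28 and -0.011. Acsl1, the main synthetase of the adult heart, had a mean of -0.083 ± 0.26 and crossed 0. Fabp3, the heart fatty acid binding protein, read -0.26, -0.21, 0.26 and 0.37, with both of its probes below 0 on arrays 1 and 2 and above 0 on arrays 3 and 4. The probe used for Fabp3 has no genome position in the files, and the other probe gave a mean of -0.003 beside 0.040.

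**Figure D2:**
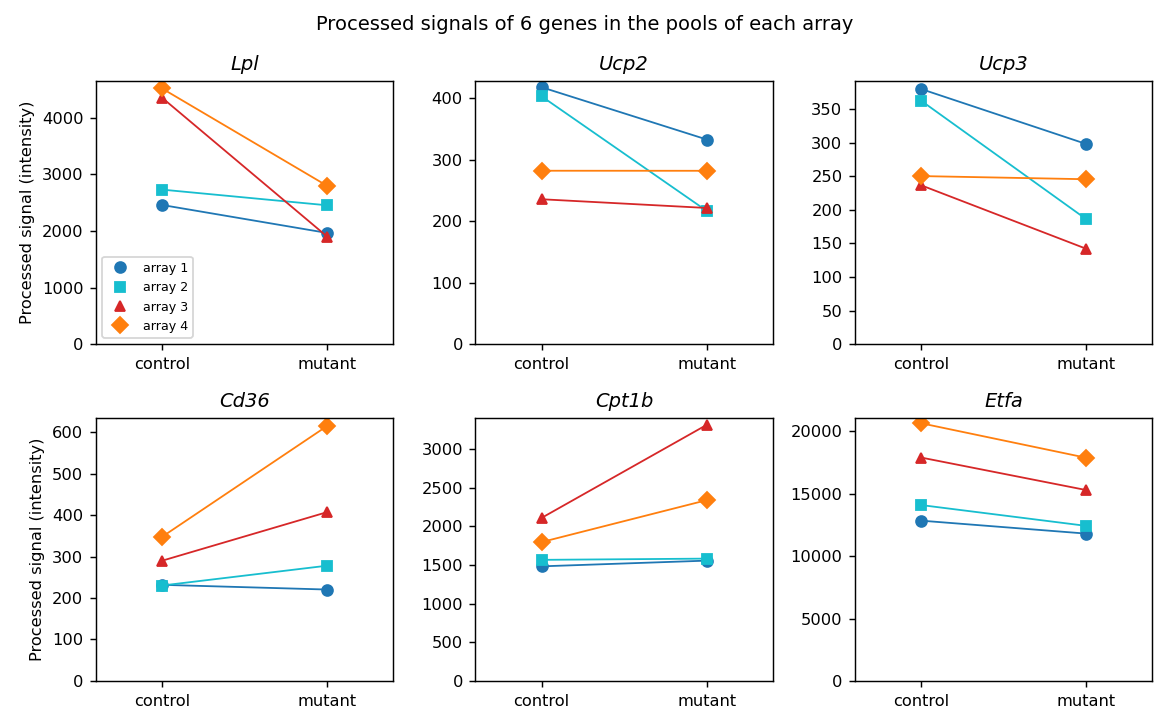
Processed signal (intensity, linear axis from 0) of 6 genes in the control and the mutant pool of each array, joined by a line per array. The line for Lpl descends on all 4 arrays, from 4350 to 1898 on array 3, and so do those for Etfa, while Cd36 climbs from 347.6 to 615.4 on array 4 and hardly changes on array 1.

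In the carnitine shuttle the liver and the muscle form of Cpt1, the enzyme that couples acyl groups to carnitine at the outer mitochondrial membrane, lay on opposite sides of 0. Cpt1a, the form that prevails in liver and fetal tissues, had ratios of -0.002, -0.285, -0.32 and -0.17 and a mean of -0.19 ± 0.14 (SD, n = 4; limma adjusted p = 0.586). The other Cpt1a probe read 0.017, -0.415, -0.073 and -0.086 and so was not below 0 on array 1. Cpt1b, the muscle form, had ratios of 0.11, 0.014, 0.62 and 0.41, a mean of 0.29 ± 0.28 and an adjusted p of 0.584. Neither passed, and the difference between them was not tested. The Cpt1b value leaned on arrays 3 and 4, and its mean was 0.18 without replicate 3 and 0.12 with array weights. Its other probe read -0.098, -0.29, 1.47 and 1.008, below 0 on arrays 1 and 2. Read as labelled the mean of Cpt1b was -0.23 and that of Cpt1a 0.050, each with the opposite sign. The probe used for Cpt1b lies at chr15:89246836-89246895 in mm9 and that for Cpt1a at chr19:3385374-3385433. The former is also annotated with a readthrough transcript of Chkb and Cpt1b, so the value may hold both.

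The rest of the shuttle lay a little below 0. Cpt2, which rebuilds acyl-CoA on the inner membrane, was below 0 on all 4 arrays at -0.061, -0.17, -0.215 and -0.12, a mean of -0.14 ± 0.067. Its other, dimmer probe was at -0.26, -0.42, -1.03 and 0.13 and did not keep one sign. Slc25a20, the carnitine-acylcarnitine carrier, had a mean of -0.11 ± 0.26, Crat, the carnitine acetyltransferase, one of -0.13 ± 0.24 and Mlycd, which removes the Cpt1 inhibitor malonyl-CoA, one of -0.068 ± 0.21. All 3 were below 0 on arrays 1 to 3 and above 0 on array 4, so the spread over arrays exceeded each mean.

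The 12 enzymes of the beta-oxidation cycle split by array. All 12 were below 0 on array 1 and all 12 on array 2, whereas 4 were below 0 on array 3 and 3 on array 4. Their medians were -0.15, -0.24, 0.046 and 0.13 on arrays 1 to 4, and the median of the 4-array means was -0.079, with 8 of 12 below 0. None of the 12 had an unadjusted p under 0.05 in limma. Arrays 1 and 2 are those on which the deposited ratio runs with Cy5 over Cy3, so with all arrays read as labelled the means of all 12 enzymes were below 0, with a median of -0.15. Of all genes tested, 50.1% had a mean below 0 in that reading.

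Of the 12 enzymes, Decr1, Acads and Hadha had the smallest unadjusted p as labelled. Decr1, the dienoyl-CoA reductase that serves unsaturated acids, had ratios of -0.29, -0.35, 0.30 and 0.44. The mean was 0.026 in the direction of the deposited table and -0.35 ± 0.071 read as labelled (limma unadjusted p = 0.00166, adjusted p = 0.1). The other, dimmer Decr1 probe read 0.15, 0.090, -0.27 and -0.017 and did not show the split. Acads, the short-chain dehydrogenase, read -0.36, -0.58, 0.11 and 0.35, which gave means of -0.12 and, as labelled, -0.35 (adjusted p = 0.191). Acadm, the medium-chain dehydrogenase, read -0.345, -0.245, 0.039 and 0.115, with means of -0.11 and -0.19. These 3 genes thus had Cy5 over Cy3 log2 ratios below 0 on all 4 arrays, and a difference between dyes and a difference between genotypes cannot be told apart in that reading. Acadvl, the very long-chain dehydrogenase, and Hadh, the medium- and short-chain hydroxyacyl-CoA dehydrogenase, followed the same signs, with means of 0.017 and 0.11.

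Hadha and Hadhb encode the alpha and beta subunits of the mitochondrial trifunctional protein, which carries out the last steps of the cycle for long chains. The genes lie head to head, and in RefSeq (GRCm38.p6) their promoter windows of 300 bases share 228 bases. Hadha read -0.25, -0.19, 0.61 and 0.33, with a mean of -0.34 as labelled (limma unadjusted p = 0.008, adjusted p = 0.191), and Hadhb -0.056, -0.021, 0.025 and -0.061. The SD over the arrays was 0.41 for Hadha and 0.040 for Hadhb, which stayed within 0.061 of 0 on every array. The means, 0.12 and -0.028, were both smaller than the SD of Hadha.

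The remaining enzymes did not show the full split. Acadl, the long-chain dehydrogenase, was the one enzyme below 0 on all 4 arrays, at -0.071, -0.175, -0.071 and -0.048. Acaa2, the thiolase that closes the cycle, read -0.26, -0.27, -0.19 and 0.14 and had the lowest mean of the 12, -0.15 ± 0.19 (limma adjusted p = 0.655). Echs1, the short-chain enoyl-CoA hydratase, had a mean of -0.11, Ech1, an isomerase, one of -0.076, and Acaa1a, a peroxisomal thiolase, one of -0.083. Acaa1a has a close paralogue, Acaa1b, whose own probe had a mean of -0.019, and the probes may not fully separate them.

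In its medians by array, the split ran opposite to that of the heart muscle markers. The 13 markers, which include Actc1, Tnnt2 and Myh6, had medians of 0.12, 0.30, -0.26 and -0.37 on arrays 1 to 4, above 0 where the beta-oxidation enzymes were below. Their summed signal ran from 918000 to 1240000 in the mutant and from 819000 to 1280000 in the control pools. Read as labelled, all 13 markers had means above 0 with a median of 0.25. Within the list, 7 of the 13 markers were above 0 on arrays 1 and 2 and below 0 on arrays 3 and 4. Tnni1 was below 0 on all 4 arrays. Arrays 1 and 2 also differ from arrays 3 and 4 in the dye of the mutant pool in the deposited direction. The part of dye or of heart muscle content in the values of the enzymes was not tested. Over all 34 genes, 10 were below 0 on arrays 1 and 2 and above 0 on arrays 3 and 4, or 29.4%, against 13.7% of all genes tested, and 0 showed the opposite pattern, which 13.2% of all genes did. The 10 were Fabp3, Acadvl, Acadm, Acads, Hadha, Hadh, Decr1, Etfb, Pdk4 and Ppargc1b.

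**Figure D3:**
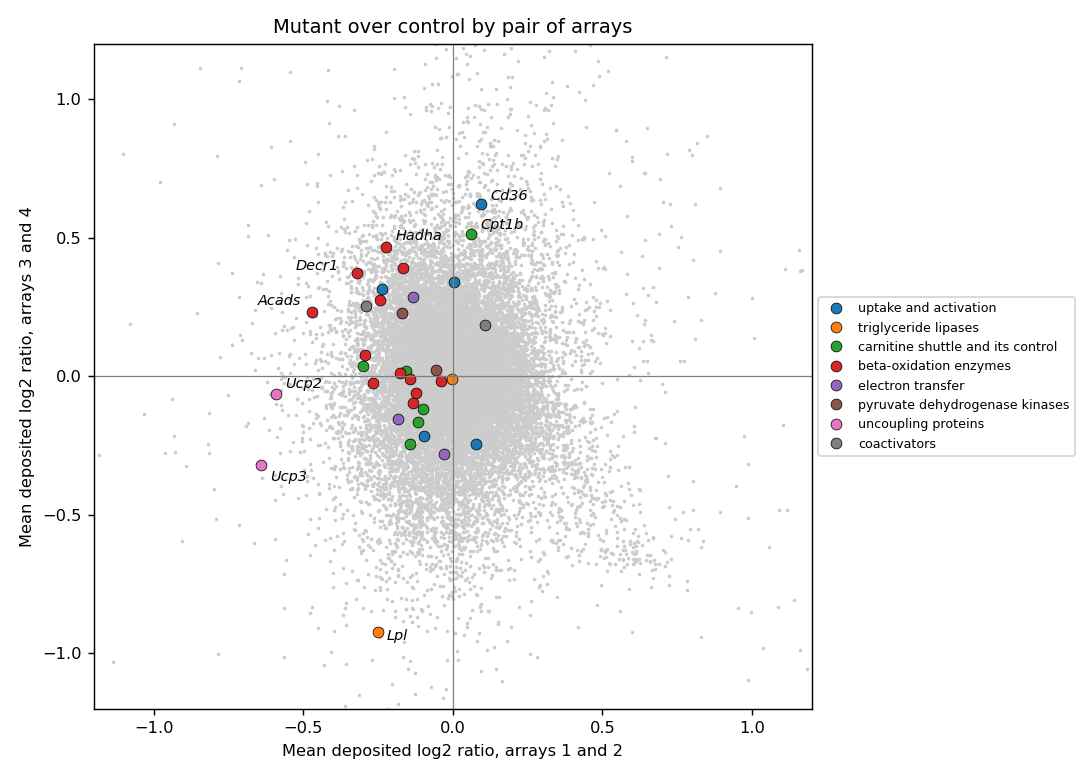
Mean deposited log2 ratio over arrays 1 and 2 (horizontal) against that over arrays 3 and 4 (vertical), with 34 lipid fuel genes in colour by role and all 19698 genes tested in grey; 95 grey points lie outside the axes. Of the 12 beta-oxidation enzymes, 7 lie in the upper left, with Lpl, Ucp2 and Ucp3 in the lower left and Cd36 and Cpt1b in the upper right.

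With every array read as labelled, 26 of the 34 genes had a mean below 0, where 50.1% of all genes tested did. The 10 genes below 0 on arrays 1 and 2 and above 0 on arrays 3 and 4 are by definition those below 0 on all 4 here. That count, against 13.7% of all genes, and the 0 above 0 on all 4, against 13.2%, therefore restate the split and are no further result. In this reading 139 genes passed limma at an adjusted p of 0.05, 0.706% of those tested, and 0 of them were among the 34, whose lowest adjusted p was 0.100. At an unadjusted p under 0.05, 9 of the 34 were lower in Cy5 and 0 were higher, against 7.51% and 7.56% of all genes. The median of the set was -0.11. The median of the set was below 0 in both readings, but these are not independent. Arrays 1 and 2, where the medians of the set were -0.11 and -0.17, enter both with the same sign. The means of 19 of the 34 single genes had opposite signs between the readings.

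**Figure D4:**
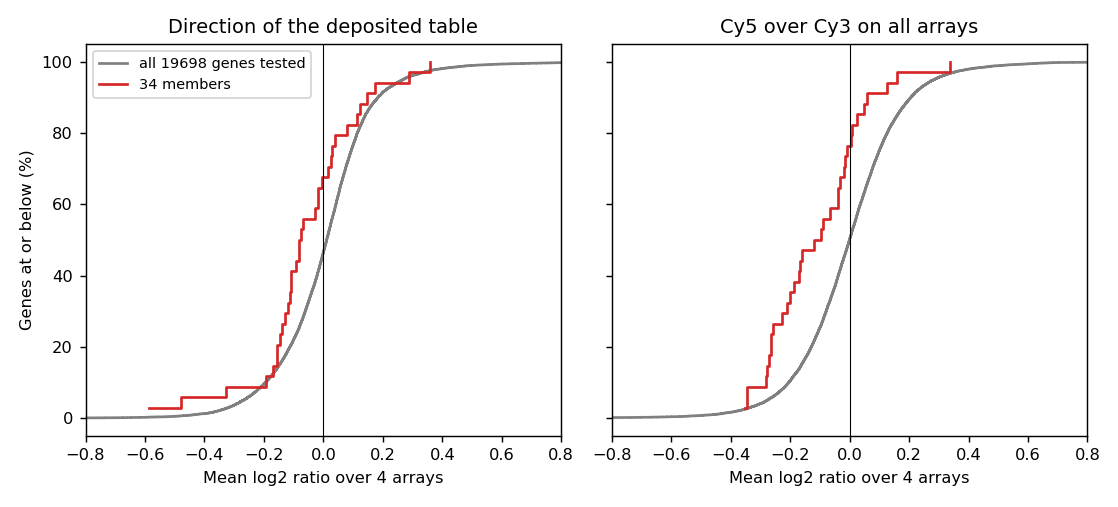
Percentage of genes at or below a given mean log2 ratio over 4 arrays, for the 34 lipid fuel genes (red) and all 19698 genes tested (grey), in the direction of the deposited table (left) and as Cy5 over Cy3 on all arrays (right). The red line lies mostly to the left of the grey one in both panels, with medians of -0.079 and -0.11.

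The electron transfer genes hand the electrons of every acyl-CoA dehydrogenase to the respiratory chain. Etfa, the alpha subunit of the flavoprotein, had the tightest of the values that were below 0 throughout, at -0.15, -0.22, -0.17 and -0.14. Its mean was -0.17 ± 0.035 (SD, n = 4; limma adjusted p = 0.584), and leaving out each replicate in turn moved it between -0.18 and -0.15. The other Etfa probe was also below 0 on every array but less even, at -0.13, -0.077, -1.67 and -0.37. Etfdh, the dehydrogenase that receives the electrons, read -0.031, -0.029, -0.53 and -0.027, so that array 3 alone set its mean of -0.155, which was -0.029 without replicate 3. Etfb, the beta subunit, read -0.15, -0.11, 0.39 and 0.19 and did not share the sign of Etfa. Read as labelled, the mean of Etfa was -0.015 and that of Etfb -0.21.

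The uncoupling proteins, mitochondrial carriers induced by fatty acids in muscle, were both below 0 on every array. Ucp3, the muscle form, had ratios of -0.37, -0.91, -0.63 and -0.011 averaging -0.48 ± 0.38 (SD, n = 4) or 0.717 on the linear scale, with an adjusted p of 0.584 in limma. Ucp2, the more widely expressed form, read -0.33, -0.85, -0.105 and -0.020, with a mean of -0.33 ± 0.37 and an adjusted p of 0.593. In both genes array 2 was lowest and array 4 close to 0. Without replicate 2 the mean was -0.15 for Ucp2 and -0.335 for Ucp3. Read as labelled the means were -0.26 ± 0.43 and -0.16 ± 0.65, with only arrays 1 and 2 below 0.

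The probes lie near each other on chromosome 7 in mm9, at chr7:107630399-107630458 for Ucp3 and chr7:107647809-107647868 for Ucp2. The second Ucp3 probe was not well above background in any channel, so the Ucp3 value rests on a single probe. Processed signals of Ucp3 were 298.0, 186.0, 142.0 and 245.6 in the mutant pools and 379.9, 362.5, 236.6 and 250.3 in the control pools. The control pools of arrays 3 and 4 thus lay below the mutant pool of array 1, and the groups overlapped. The 10 markers of primitive erythroid cells, which share the pools, were all below 0 in their means, against 46.5% of all genes tested. On all 4 arrays 5 of these markers were below 0, against 9.73% of all genes, and the median of the markers was -0.38. Their medians by array were -0.16, -0.65, -0.44 and -0.40, lowest on array 2 as for Ucp2 and Ucp3. The summed signal of these markers ran from 226000 to 366000 in the mutant and from 336000 to 467000 in the control pools, and none was at background throughout. The 6 epicardial markers were also lowest on array 2, with medians of 0.043, -0.49, -0.28 and -0.075 by array and -0.15 over the means. Their summed signal ran from 3360 to 5270 in the mutant and from 4160 to 5290 in the control pools, and all 6 passed the brightness filter. The part of either list in the values of Ucp2 and Ucp3 was not tested.

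Promoters bear on this set because nuclear receptors of the PPAR and ERR type bind repeats or extensions of the half-site AGGTCA, at which corepressors that hold Hdac3 can act. Of the 35 genes, 29 had a promoter in the RefSeq table (GRCm38.p6), and the 250 bases before the start were searched on both strands. Lpl, Cpt1b, Crat, Decr1, Acaa2 and Ppargc1b had none there. The PPAR element, a direct repeat of AGGTCA with any 1 base between the copies, was in 0 of the 29 genes and in 0.0335% of all 32851 promoters, and the ERR element TCAAGGTCA was in 0 and 0.387%. Exact matches this rare would seldom fall in 29 promoters, so the counts of 0 cannot tell whether such sites are absent. The half-site alone, which both elements contain, was in 6 genes, Acadm, Acadvl, Cd36, Cpt1a, Echs1 and Ucp3, and in 14.0% of all promoters. The 3 of these with the means farthest from 0 are shown from 5′ to 3′ on the strand of the gene, with the half-site in capitals (TGACCT where it lies on the other strand). They lie at chr7:100472741-100472990 on the plus strand for Ucp3, chr5:17835897-17836146 on the minus strand for Cd36 and chr19:3323051-3323300 on the plus strand for Cpt1a.
Ucp3: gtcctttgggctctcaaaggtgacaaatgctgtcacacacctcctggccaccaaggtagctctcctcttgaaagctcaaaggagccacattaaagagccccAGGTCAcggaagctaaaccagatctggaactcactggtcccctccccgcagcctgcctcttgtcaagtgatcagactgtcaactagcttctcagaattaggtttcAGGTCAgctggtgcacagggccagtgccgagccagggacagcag
Cd36: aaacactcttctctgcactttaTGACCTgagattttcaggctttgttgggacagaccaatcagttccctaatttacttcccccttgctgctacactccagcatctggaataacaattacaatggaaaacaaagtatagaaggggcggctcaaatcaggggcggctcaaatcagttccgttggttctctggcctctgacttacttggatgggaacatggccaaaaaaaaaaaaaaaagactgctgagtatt
Cpt1a: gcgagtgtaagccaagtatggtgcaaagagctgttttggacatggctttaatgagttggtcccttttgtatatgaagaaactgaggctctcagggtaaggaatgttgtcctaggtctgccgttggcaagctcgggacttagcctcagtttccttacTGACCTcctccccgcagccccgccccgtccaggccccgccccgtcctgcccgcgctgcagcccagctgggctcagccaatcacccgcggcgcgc
Ucp3 has 2 half-sites in this window, which start at -149 and -44 from the gene's start, Cd36 has 1 at -228 and Cpt1a has 1 at -94. The means of these genes were -0.48, 0.36 and -0.19, so genes that share the letters did not share a direction. A match is a description of the sequence and not a bound site.

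The switches of fuel choice lay near 0. Pdk4, the pyruvate dehydrogenase kinase that fasting and PPAR agonists induce to spare glucose, read -0.28, -0.060, 0.145 and 0.31, a mean of 0.029 ± 0.26, and -0.20 as labelled. Pdk2, the more constant kinase, had a mean of -0.017 ± 0.11. The other Pdk2 probe read -0.41, -0.30, 0.036 and 0.21, a mean of -0.12 ± 0.29. The coactivator Ppargc1a, which drives mitochondrial biogenesis and fatty acid oxidation with PPAR and ERR partners, had ratios of 0.14, 0.080, 0.40 and -0.030 and a mean of 0.15 ± 0.18, with 3 arrays above 0 (limma adjusted p = 0.65), and 0.062 without replicate 3. Its other probe was split at -0.15, 0.185, -0.034 and 0.16. Ppargc1b, its close relative, read -0.17, -0.41, 0.20 and 0.31, which averaged to -0.018, and to -0.27 as labelled. None of these 4 means exceeded its own spread over the arrays.

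The transcription factors upstream of these genes gave no common direction. Of 19 PPAR and ERR regulators tested, 9 had a mean above 0 and 10 below, with a median of -0.056, and 0 passed the adjusted threshold in limma, while 3 were lower and 0 higher at an unadjusted p under 0.05, where 4.59% and 3.89% of all genes were. These 3 were Esrrb, an orphan receptor of the ERR family that is also in the pluripotency list (-0.27 ± 0.23), Tfam, the factor that maintains mitochondrial DNA (-0.25 ± 0.21), and Klf15, a regulator of lipid use in heart and muscle (-0.21 ± 0.12), each below 0 on all 4 arrays (SD, n = 4). The mean of Tfam was -0.15 without replicate 3. Named for their role outside the rule, Ppara read 0.225, 0.17, 0.27 and -0.012 and Ppard 0.21, 0.23, 0.47 and 0.000, with means of 0.16 and 0.23, the latter 0.15 without replicate 3. Esrra, the main ERR factor of the heart, read -0.028, -0.039, 0.40 and 0.36, and the corepressor Ncor1 had a mean of -0.15. Read as labelled the median of the 19 was 0.057, above 0.

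Other genes of fatty acid oxidation, which include the peroxisomal branch, had means below 0 in most cases. Of 24 tested, 18 had a mean below 0, with a median of -0.080, and 5 were below 0 on all 4 arrays and 1 above, while 0 passed after adjustment in limma. Of all genes tested, 46.5% had a mean below 0, 9.73% were below 0 on all 4 arrays and 10.0% above. At an unadjusted p under 0.05, 4 of the 24 were lower and 1 higher, where 4.59% and 3.89% of all genes tested were. Acsl5, a mitochondrial acyl-CoA synthetase, was even at -0.21, -0.33, -0.40 and -0.43, a mean of -0.34 ± 0.096 (SD, n = 4; limma adjusted p = 0.584). Acsl6, a synthetase known from brain and red cells, read -0.395, -0.015, -0.65 and -0.74, a mean of -0.45 ± 0.32. Its processed signals were dim, from 13.74 to 37.49 in the mutant and from 23.02 to 82.78 in the control pools. The erythroid markers were lowest on array 2, at a median of -0.65, where Acsl6 was near 0. Their part in the Acsl6 value was not tested. Acox3, a peroxisomal oxidase of branched chains, was above 0 on all arrays at 0.51, 0.40, 2.10 and 0.30, where array 3 set the mean of 0.83, which was 0.40 without replicate 3. As labelled the median of the 24 was -0.004 and 12 had a mean below 0.

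Genes of lipid transport, storage and synthesis had a median of 0.027, with 13 of 20 tested above 0, where 53.4% of all genes were, and those of pyruvate and ketone use one of -0.091, with 14 of 16 below 0, where 46.5% were. In the first list Plin2, a coat protein of lipid droplets, was at -0.175 ± 0.11 and below 0 on all arrays, while Dgat2, which makes triglyceride, was at 0.28 ± 0.27 and Angptl4, an inhibitor of Lpl, at 0.16 ± 0.165 (SD, n = 4), both above 0 on all arrays. In the second list Dld and Pdha1, subunits of the pyruvate dehydrogenase complex, were at -0.33 ± 0.28 and -0.30 ± 0.23, and Pdp1, the phosphatase that activates it, at -0.225 ± 0.18, each below 0 on all 4 arrays. The mean of Dld was -0.20 without replicate 3, and those of Pdha1 and Pdp1 were -0.18 and -0.14. That of Dgat2 was 0.16 without replicate 2, and that of Angptl4 0.096 without replicate 1. None of these genes passed (limma adjusted p = 0.584 for Dld, Pdha1, Pdp1 and Dgat2, 0.593 for Plin2 and 0.627 for Angptl4). Read as labelled the medians were 0.065 and -0.010.

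Liver and visceral endoderm are tissues rich in lipid enzymes that lie next to the heart. All 7 of their 12 markers that passed the brightness filter had means above 0, against 53.4% of all genes tested. Of the 7, Foxa2 passed through the mutant pool only, being well above background on 3 of 4 arrays in the control. The filter thus favoured its sign. The median of the 7 was 0.35, or 0.51, 0.46, 0.12 and 0.24 by array, and 0.070 as labelled. Summed over the list, the signal ran from 1720 to 2150 in the mutant and from 1420 to 1940 in the control pools, and Apoa1 and Apoa4 were not well above background in any channel. Of the 34 lipid fuel genes, 23 had a 4-array mean below 0, while the medians of the set on arrays 3 and 4 were above 0, at 0.032 and 0.099. The part of liver and endoderm cells in the values of the lipid fuel genes was not tested. In the lists of neural and of somite markers 1 and 2 of 6 genes passed the filter. The plot of list medians by array sets these values beside each other.

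**Figure D5:**
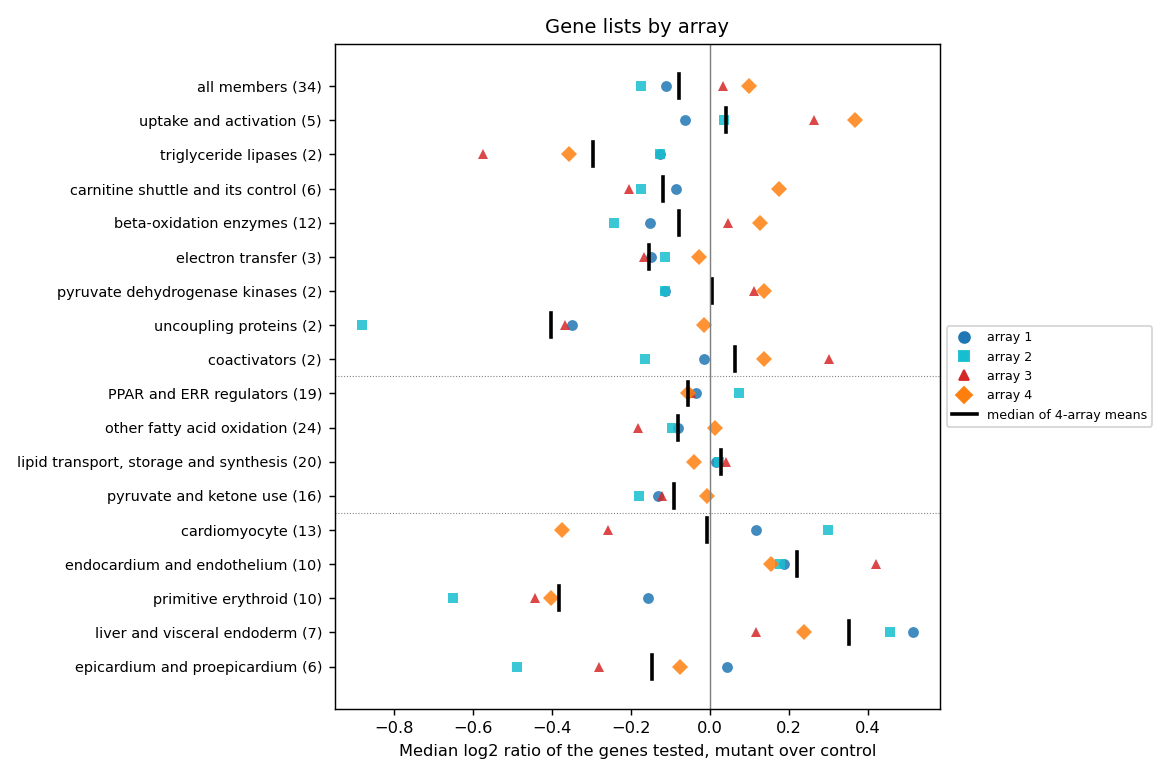
Median deposited log2 ratio of mutant over control (horizontal axis) for each gene list, by array (symbols) and over the 4-array means (black bars), with the number of genes tested in brackets. The list of all 34 lipid fuel genes lies below 0 on arrays 1 and 2 and above 0 on arrays 3 and 4 (-0.11, -0.17, 0.032 and 0.099), the heart muscle markers show the reverse, and the erythroid markers lie below 0 on all 4.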

How the data were processed

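Gene expression was measured on 4 two-colour Agilent arrays. The authors deposited a table of normalized log2 ratios, with a normalization that no source here names. They also deposited scanner files with spot and background intensity, processed intensity and the log10 ratio of Cy5 over Cy3. These came from Agilent Feature Extraction 11.5.1.1 per the file headers, while the submitters' processing notes name 8.5.1.1. Rows of the table were matched by probe name, spots of a probe were averaged, and control probes were left out. Of 39429 probes, 27508 were named by accession through RefSeq (GRCm38.p6, names only), and members kept the name in the files. Each gene was its probe of highest mean processed signal, kept if well above background on all 4 arrays in either pool. The mean ratio of each gene was compared with 0 by lmFit and eBayes of limma 3.58.1 (R 4.3.3), with Benjamini-Hochberg adjustment over 19698 genes at 0.05, after a check on simulated data. An exact sign test of 4 pairs cannot go below p = 0.125. Pools are biological replicates per the labels.

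The genes named were all 35 members, Hdac3 and, from 4 further lists, up to 3 genes of smallest p with one sign on all arrays; Ppara, Ppard, Esrra, Ncor1 and Acaa1b are named outside this rule. The members and lists were chosen with earlier results of these data known. Alternatives were other normalizations, filters, probe rules, array signs, a dye term, array weights, an unpaired fit and leaving out each replicate.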

Additional observations from a re-analysis of the deposited data

Results flagged for a closer look

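Of the 35 lipid fuel genes, 1 had an array that stood apart from the other 3 by Dixon's criterion for 4 values, which sets the gap to the nearest value against the whole range. Etfdh read -0.532 on array 3, with the other arrays between -0.031 and -0.027. The gap was 0.992 of the range, and without that array the mean was -0.029. Chance flags about 1 in 20 groups, and 6.54% of all genes tested met the criterion.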

How the results depend on the processing

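No gene of the set passed the adjusted threshold under any alternative run. The count over all genes, 0 with the deposited ratios, was 139 with all arrays as labelled and 4 with array weights, and 0 to 2 over leaving out each replicate, the 2 arising without replicate 1. The median of the members stayed below 0 in every setting, from -0.1273 with array weights to -0.0263 without replicate 2. The number with one sign on all arrays, 10, ran from 11 to 17 over leaving out each replicate, where 3 arrays need to match, with the 17 without replicate 4. Of all genes tested, the share above 0 on every array then rose too, from 10.0% to between 14.1% and 19.1%. The share below 0 rose from 9.73% to between 13.5% and 17.9%. The number in the set was 7 with all probes of a gene averaged and 8 with normexp and loess. All genes stood at 10.0% above and 10.3% below 0 in the former and at 8.75% and 9.29% in the latter. The fit with no replicate block, in which the pools of an array are not a pair, was made on those normexp and loess values, so its median of -0.0738 and count of 8 are those of the paired fit to them. Without the block 641 genes had an unadjusted p under 0.05, against 1524 in that paired fit, and 0 passed in either. The number of members whose mean changed sign was 19 as labelled, 9 with array weights and 3 with Agilent's own processed ratio. It was 0 with normexp and loess, all probes averaged or no replicate block, and 1 to 8 over leaving out each replicate. A dye term and either filter on brightness leave the mean of each gene as it was, so no sign could change there. In the scanner's loess values the mean of Ucp3 was -0.31 in place of -0.48. With 4 arrays, differences of the size seen for most members lie within the spread between arrays.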
